A study of Homo sapiens with 4 samples.

Results

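Convergent genes lie on opposite strands and are transcribed toward each other, and in some pairs the far ends of both genes share the same stretch of DNA. The analysis concerned the pairs of protein-coding genes in which only the 3′ ends overlap, that is, the gene on the + strand starts first and ends inside the gene on the − strand. Pairs were selected on their positions and on one measured value, the sum of counts, and a pair was kept when each of its genes had at least 100 counts summed over the 4 libraries. Of 1199 such pairs among 19884 listed protein-coding genes, 912 were kept, and they held 1819 genes out of 60708 listed genes. In 10 pairs a gene also belonged to another pair, and in 539 pairs neither gene overlapped any further protein-coding gene. The question was whether the changes of the 2 genes of a pair go together.

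The data were 4 libraries of TT-seq, in which newly made RNA is labelled with 4-thiouridine, here for 20 min, and the labelled fragments are purified and sequenced. The cells were HEK293, an established line from human embryonic kidney, in which RPB1, the largest subunit of RNA polymerase II, carried a degron that lets auxin trigger its destruction. All cells received a plasmid for RPB1 with a C-terminal domain (CTD) of 52 repeats, either 52X WT or 52X T4A, in which each repeat has alanine in place of threonine 4, and all received auxin from 48 h after transfection for a further 48 h, with 2 libraries per group. Nothing in the labels says whether the 2 libraries of a group came from separate cultures, so p-values measure only the spread between these samples, which may be technical.

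RNA polymerase II normally runs past the poly(A) signal at the end of a gene before it is released, while the RNA is cut and polyadenylated behind it. Where genes converge, a polymerase that runs on can meet one coming the other way, and the RNAs of both strands are complementary over the shared stretch. The CTD of RPB1 carries the factors that cut the RNA and release the polymerase, and threonine 4 is one of the residues that are phosphorylated toward gene ends.

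The 3′ ends of the 4 pairs whose internal ratio passed the test below are shown first, because the 3′ end is the feature that defines these pairs. In LRRC7/LRRC40 and SEC61A1/RUVBL1 the canonical transcripts do not overlap, so their printed ends need not lie in the shared stretch. Each line gives the final 30 bases of the canonical transcript (GENCODE 44, lifted to GRCh37), 5′ to 3′ in the sense of the RNA, with capitals for the AATAAA poly(A) signal nearest the end. AATAAA and ATTAAA were searched on the transcribed strand only. LRRC7 and LRRC40, ATP1B1 and NME7 (all chromosome 1), NCAPG and LCORL (chromosome 4), and SEC61A1 and RUVBL1 (chromosome 3) are given in that order, the gene on the + strand first.
LRRC7: ataaatAATAAAatgtcaccttattgtaaa
LRRC40: agAATAAAagttacatttttcaaatattga
ATP1B1: aaaacaacggacAATAAAagaatgaacaca
NME7: agttcaaAATAAAgatttattttcaaacaa
NCAPG: ggcatgggaaaAATAAAtttaagcaccaaa
LCORL: aataaaacAATAAAaagatcttgaatttca
SEC61A1: tgacaAATAAAgccagttttttacaaggta
RUVBL1: ctgatgcattattctactgcgttcacattt
All of these ends but that of RUVBL1 hold AATAAA, between 12 bases (ATP1B1) and 22 bases (LRRC40) before the last base, and neither motif is in the RUVBL1 window. Across the pairs, 981 of 1817 genes with a canonical transcript had AATAAA in the final 30 bases (54%), against 8916 of 15289 tested protein-coding genes (58.3%). ATTAAA without AATAAA was found in 14.7% and 13.8%, in the same order.

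The shared stretch was short in most pairs and long in a few. The overlap ran from 2 bases in SYDE1/ILVBL to 153276 bases in C12orf40/SLC2A13, with a median of 2954.5 bases and quartiles of 674 and 10213 bases. It made up a median of 8.61% of the gene on the + strand and 8.22% of the gene on the − strand. The genes themselves were of usual size, with a median listed length of 37609 bases against 37837 bases for all tested protein-coding genes. In 479 pairs exons of the canonical transcripts overlapped, by a median of 373 bases, and in 199 of these the overlap reached coding sequence of either gene. In 416 pairs the canonical transcripts did not overlap at all, so that the shared stretch came from longer transcripts of the annotation. The plot of overlap lengths shows both classes.

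**Figure D1:**
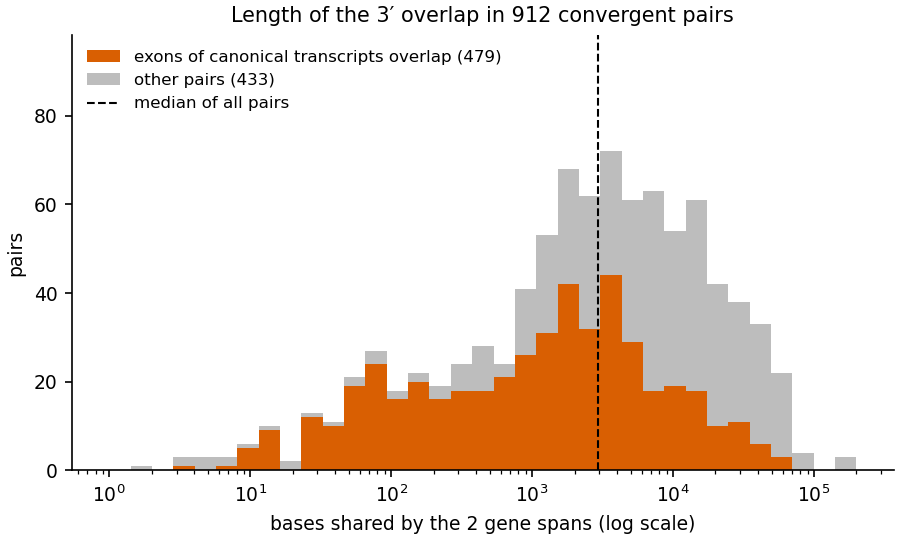
Number of pairs (vertical axis) by the bases that the 2 gene spans share (horizontal axis, log scale), with the 479 pairs whose canonical exons overlap in orange and the other pairs in grey, stacked. The dashed line is the median of 2954.5 bases, and most pairs whose canonical exons do not overlap lie among the longer overlaps.

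The genes of a pair often differed in how many reads they held. The more counted gene had a median of 4.04 times the counts of the other, and up to 312 times. The less counted gene of a pair had a median of 1612.5 counts over the 4 libraries. The pair just inside the count minimum was TIMMDC1/CD80 (8051 and 104 counts), and the pair just outside was PLAAT1/ATP13A5 (4957 and 99 counts). Levels per length (log2 CPM per kb, where CPM is counts scaled to the library size after TMM normalization) of the 2 genes were not related across pairs (Pearson's r = −0.016, n = 912). The same r was 0.39 in 2422 pairs of neighbouring genes on one strand (tandem pairs), 0.19 in 1234 convergent pairs without overlap and 0.16 in 1055 divergent pairs, all at most 10000 bases apart and with the same count minimum. Spearman's rank correlations lay closer together, at −0.0038 in the overlapping pairs, 0.157 in tandem, 0.082 in convergent without overlap and 0.135 in divergent pairs. The pairs of one kind share libraries and chromosomal neighbourhoods, so these r are descriptions.

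The 4 libraries held 33188536 to 45605027 counts. Log2 CPM of all 23321 tested genes correlated at 0.991 between the WT libraries and at 0.979 between the T4A libraries, and T4A replicate 1 stood apart from both WT libraries (0.974 and 0.975), more than T4A replicate 2 did (0.988 and 0.989). POLR2A, which encodes RPB1, had 9640 and 8720 CPM in WT and 7492 and 8083 CPM in T4A, in which reads of the plasmid and of the endogenous gene cannot be told apart. VIM, NEFL, KRT8 and KRT18, which these cells are known to make, had 18.6 CPM or more in every library, and PAX2 and LHX1, of the kidney lineage, had 1.81 to 3.64 CPM. NEFM and the defining markers of blood, liver, endothelium, muscle and fibroblasts (PTPRC, HBB, ALB, APOA1, CDH5, MYH2, DES, COL1A1, COL3A1 and DCN) had at most 2.95 CPM. The strand setting of the counting was not given in the sources used here. For 1725 genes of at least 1000 bases that lie inside a gene of the other strand with at least 10000 counts, the read density was a median of 1.55% of that of the gene around them, and 0% at the 10th percentile of these genes, values that include any transcription of their own.

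No gene of the pairs passed the test between T4A and WT. With edgeR's quasi-likelihood test, an adjusted p below 0.05 and a fold change above 1.5, 0 of the 1819 genes were called, where 1 of 23321 tested genes was (0.00429%). The smallest adjusted p among them was 0.105, for LRRC7. At an unadjusted p below 0.05 there were 312 genes of the pairs (17.2%), 97 higher (5.33%) and 215 lower (11.8%) in T4A. The background at that level was 15.5% of all tested genes (7.45% higher, 8.02% lower) and 17% of tested protein-coding genes (6.58% higher, 10.5% lower), so the total was near the protein-coding background with slightly more genes on the lower side. DESeq2's Wald test called 7 of the genes, a count given without the share it called of all tested genes.

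The genes of the pairs were slightly lower in T4A as a group. Their median log2 fold change was −0.076, against −0.043 for all tested protein-coding genes and −0.00076 for all tested genes. Each library was set against the mean of the WT libraries, and the T4A libraries had medians of −0.065 and −0.061, with the WT libraries at −0.0032 and 0.0032. The WT values mirror each other because their own mean was the reference, so they are no measure of spread for T4A. Over all tested genes the medians of the T4A libraries were 0.0094 and 0.0016. Both T4A libraries lay on the lower side of both WT libraries for 616 genes (33.9%) and on the higher side for 323 genes (17.8%), where 24.7% and 24.8% of all tested genes did (49.5% in either direction). These shares are not given for protein-coding genes alone, whose median was also below 0 (−0.043). With library sizes in place of TMM the median of the genes of the pairs was −0.025. That scaling also moved single genes upward, LRRC7 from −0.891 to −0.840 and LRRC40 from 0.0257 to 0.0764. The medians of other genes under it are not given, so −0.025 does not show a smaller offset from them. GC content moved with the change, since the log2 fold change and the GC content of the gene span had r = −0.26 over the 1819 genes. In bulk samples, less RNA per cell and fewer cells that make it cannot be told apart.

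The log2 fold changes of the 2 genes of a pair were almost unrelated. Across the 912 pairs the log2 fold changes of the + gene and the − gene had r = 0.095 (Spearman's rank correlation 0.066), and in 51.3% of pairs both lay on the same side of the median of all tested genes. The same r was 0.15 in convergent pairs without overlap, 0.19 in divergent pairs and 0.19 in tandem pairs, with 53.6%, 57.3% and 59.0% of pairs on the same side. The 2 genes of a pair were counted in the same libraries, so noise of a library can move both. The plot of the changes of both genes shows a cloud with no tilt.

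**Figure D2:**
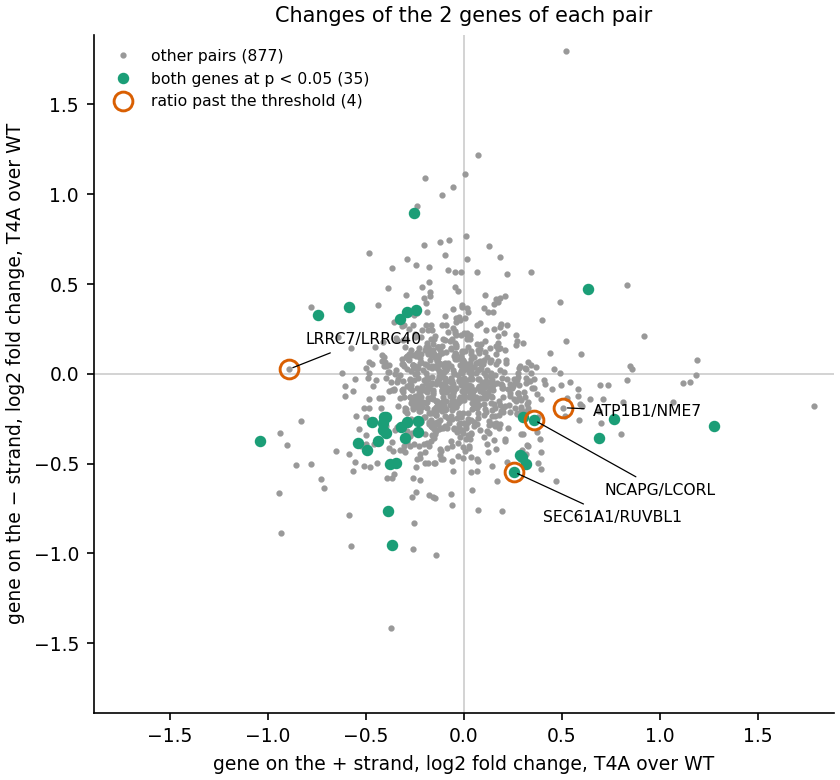
Log2 fold change of T4A over WT for the gene on the + strand (horizontal axis) and the gene on the − strand (vertical axis) in each of 912 pairs, 1 point per pair. The 35 pairs with both genes at an unadjusted p below 0.05 are green, the 4 pairs whose ratio passed the threshold are ringed and named, and the points spread over all quadrants (r = 0.095).

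Among ratios of single libraries, those with T4A replicate 1 had the highest Pearson's r between the genes of a pair, within a group and between groups. The ratio of WT replicate 2 to WT replicate 1 had r = 0.14 between the genes of a pair (rank correlation 0.26, 60.6% on the same side). The ratio of T4A replicate 2 to T4A replicate 1 had r = 0.45 (61.5%). Taken number by number, T4A replicate 1 over WT replicate 1 gave 0.42 and T4A replicate 2 over WT replicate 2 gave 0.055, and across the numbers T4A replicate 1 over WT replicate 2 gave 0.25 and T4A replicate 2 over WT replicate 1 gave −0.018. By the share on the same side the order was another one, since T4A replicate 1 over WT replicate 1 had 58.3%, and among the 550 pairs with at least 1000 counts for both genes the ratio of the WT libraries had r = 0.40. Without T4A replicate 2 the r between T4A and WT was 0.33.

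Base composition moved with these shared differences. The GC contents of the 2 gene spans of a pair had r = 0.80, much as in divergent pairs (0.82) and above convergent pairs without overlap (0.64) and tandem pairs (0.68). With a smooth trend on GC content removed from each ratio, the r of T4A over WT was 0.0023 in the overlapping pairs, that of the WT libraries was −0.025 and that of the T4A libraries was 0.077. Tandem pairs kept an r of 0.11, divergent pairs 0.061 and convergent pairs without overlap 0.039 for T4A over WT. GC content was read from GRCh37 gene spans matched by stable identifier. The plot of co-variation shows all 4 kinds of pair before and after this step.

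**Figure D3:**
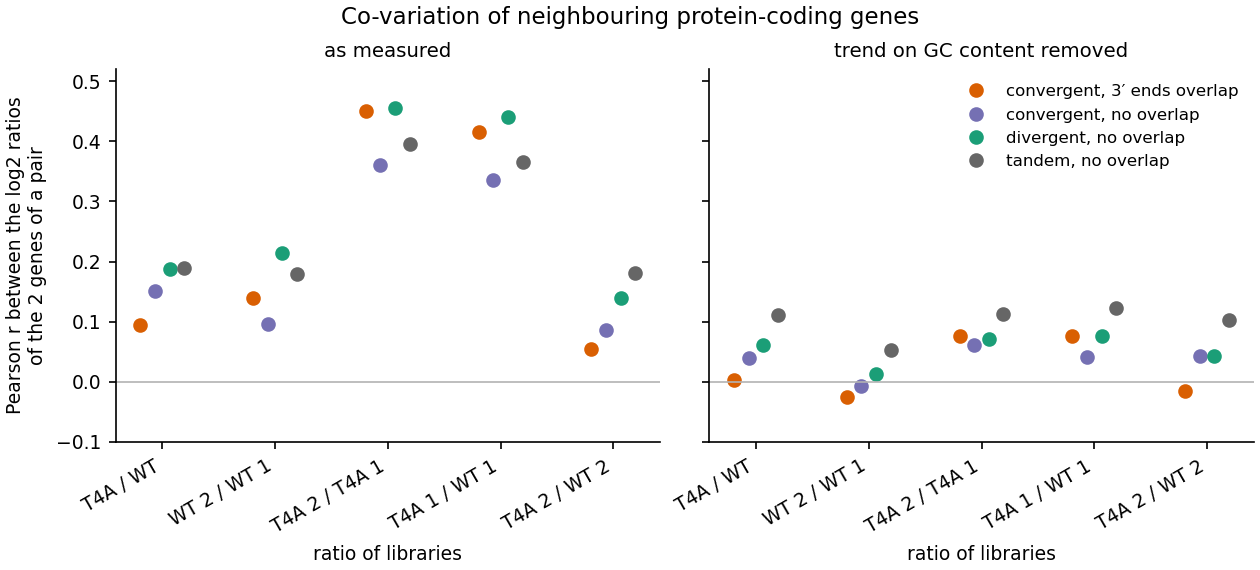
Pearson's r between the log2 ratios of the 2 genes of a pair (vertical axis) for 5 ratios of libraries (horizontal axis) and 4 kinds of neighbouring protein-coding genes (colours), as measured on the left and with the trend on GC content removed on the right. Overlapping convergent pairs reach 0.45 for the T4A libraries on the left and lie between −0.025 and 0.077 on the right.

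The weak relation had no clear order by overlap, and its r was negative among the most counted pairs. The r of T4A over WT was 0.086 in 204 pairs that share under 500 bases, 0.15 in 354 pairs that share 500 to under 5000 bases and 0.011 in 354 pairs that share 5000 bases or more. It was 0.14 in the 479 pairs whose canonical exons overlap and 0.043 in the 416 pairs whose canonical transcripts do not. Among 550 pairs with at least 1000 counts for both genes it was 0.058, and among 107 pairs with at least 10000 counts it was −0.11, with 45.8% of pairs on the same side. In those 107 pairs the WT libraries differed from each other with an r of 0.46 between the genes of a pair. Convergent pairs without overlap and with at least 10000 counts also had a negative r (−0.20, n = 97), while divergent (0.16, n = 117) and tandem pairs (0.36, n = 199) did not.

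The share of pairs on the same side was lowest where one gene held far more reads than the other, a difference that was not tested. In 269 pairs with a count ratio of 10 or more, 42.0% had both genes on the same side of the median (r = −0.019), against 57.3% of 260 pairs with a ratio of 3 to under 10 and 53.8% of 383 pairs with a ratio under 3 (r = 0.11 and 0.16). The share between the WT libraries in the most unequal pairs was 47.6%. In such pairs the less counted gene also has the wider error.

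Of the 912 pairs, 635 had no gene at an unadjusted p below 0.05, 242 had 1 and 35 had both. Among the 35, both genes were lower in T4A in 19 pairs and higher in 1, and in 15 pairs (42.9%) they lay in opposite directions. The opposite share was 15 of 37 (40.5%) in convergent pairs without overlap, 8 of 25 (32%) in divergent pairs and 10 of 48 (20.8%) in tandem pairs. In all 35 pairs, which were picked by these p, both T4A libraries lay on one side of both WT libraries for each gene. None of these genes passed the adjusted threshold. Without WT replicate 1 there were 4 pairs in the same direction and 6 in opposite directions, and without T4A replicate 2 there were 91 and 16. With library sizes in place of TMM there were 21 and 22, so that the opposite pairs were the larger group.

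IL16/STARD5 was the pair with both genes higher. IL16, which encodes a cytokine, had 2.32 and 2.90 CPM in WT and 4.44 and 3.70 CPM in T4A (log2 fold change 0.64, SE 0.24). STARD5, which encodes a sterol-binding protein, had 39.0 and 44.1 CPM in WT and 66.0 and 49.3 CPM in T4A (0.47, SE 0.14), and without T4A replicate 1 its log2 fold change was 0.25. T4A replicate 1 was the highest library for both genes. The read density of IL16 was 0.660% of that of STARD5. The genes share 5006 bases, 3.24% of IL16 and 33.1% of STARD5, and canonical exons overlap there. Where the reads of IL16 came from was not tested.

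Of the 19 pairs with both genes lower at an unadjusted p below 0.05, the 5 with the lowest mean change follow. MPI, the phosphomannose isomerase, had 21.4 and 21.4 CPM in WT and 13.7 and 15.7 CPM in T4A (log2 fold change −0.54, SE 0.13), and its partner FAM219B had 19.9 and 20.7 CPM against 15.7 and 15.4 CPM (−0.38, SE 0.13). CNNM3, of a family linked to magnesium transport, had 17.9 and 16.1 CPM against 12.1 and 13.9 CPM (−0.39), and ANKRD23, an ankyrin repeat gene of muscle, 4.19 and 3.86 CPM against 2.71 and 2.02 CPM (−0.76). The groups did not overlap for either gene in any of the 5 pairs, because that was a condition for naming them. ARMC7 (25.3 and 21.6 against 17.2 and 19.1 CPM) and NT5C, a nucleotidase (4.01 and 3.86 against 1.13 and 2.92 CPM), share 48 bases, and the log2 fold change of NT5C, −0.95, was −0.42 without T4A replicate 1 and −1.81 without T4A replicate 2. ZDHHC23, a palmitoyltransferase, had 8.58 and 9.39 CPM against 5.78 and 7.0 CPM, and CCDC191 had 11.2 and 13.5 CPM against 9.06 and 9.43 CPM. KRTCAP3 had only 1.15 and 0.907 CPM against 0.477 and 0.521 CPM, and IFT172, of the transport machinery of cilia, 15.2 and 12.9 CPM against 11.6 and 10.2 CPM. The adjusted p of these 10 genes in edgeR's test lay between 0.202 and 0.312.

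Among the 15 opposite pairs with both genes at an unadjusted p below 0.05, 4 of the 5 with the widest gap had a sparsely counted gene that was higher in T4A. C12orf40 had 1.07 and 0.703 CPM in WT and 2.68 and 1.62 CPM in T4A, while SLC2A13, an inositol transporter, had 228 and 250 CPM against 206 and 184 CPM. SLC26A5, which encodes the motor protein prestin of hair cells, had 2.48 and 2.27 CPM against 5.18 and 3.64 CPM, while PSMC2, an ATPase of the proteasome, had 74.7 and 80.4 CPM against 68.9 and 61.0 CPM. ESR1, the estrogen receptor alpha, had 3.01 and 2.40 CPM against 5.30 and 3.44 CPM, while SYNE1, a giant protein of the nuclear envelope, had 158 and 181 CPM against 140 and 125 CPM. The log2 fold change of ESR1, 0.69, was 0.36 without T4A replicate 1. In each of these pairs T4A replicate 1 was the highest library for the sparse gene.

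CFTR, the chloride channel of cystic fibrosis, had 1.84 and 3.29 CPM in WT and 4.71 and 4.05 CPM in T4A, while CTTNBP2 had 105 and 111 CPM against 95.5 and 85.2 CPM. The log2 fold change of CFTR, 0.77, was 0.40 without WT replicate 1 and 1.23 without WT replicate 2. The read density of the sparse gene was 0.872% of that of its partner in C12orf40/SLC2A13, 1.34% in CFTR/CTTNBP2, 2.13% in PSMC2/SLC26A5 and 2.56% in ESR1/SYNE1. The median of 1.55% given above is for genes that lie wholly inside an active gene of the other strand, so it is no like measure here. The shared stretch was 54.3% of C12orf40, 18.8% of SLC26A5, 1.68% of ESR1 and 1.24% of CFTR. Where the reads of the sparse genes came from was not tested. ACOT13/C6orf62 was the exception with both genes well counted. ACOT13, a thioesterase, had 18.1 and 19.0 CPM against 11.4 and 10.8 CPM (log2 fold change −0.74, SE 0.14), and C6orf62 had 173 and 199 CPM against 252 and 216 CPM (0.33, SE 0.11).

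The ratio of the 2 genes within a pair is free of any difference that moves both by the same factor. It was tested with limma as the log2 ratio of + to − gene in each library, over all 8123 neighbouring pairs within 10000 bases. Of all these, 8 passed an adjusted p below 0.05 (0.0985%), and 4 of the 8 were overlapping convergent pairs (0.0563% of the other neighbouring pairs passed). By kind, 4 of 912 overlapping convergent pairs passed (0.439%) and 4 of 1234 convergent pairs without overlap (0.324%). In divergent and tandem pairs there were 0, so the calls were not particular to overlapping ends. At an unadjusted p below 0.05 there were 199 of the 912 pairs (21.8%), against 15.9% of all neighbouring pairs and 15.3% of those other than overlapping convergent pairs. The shares were 19.7% in convergent pairs without overlap, 18.3% in divergent pairs and 14.7% in tandem pairs. The median size of the change was 0.23 on the log2 scale, within the range of the other kinds (0.20 to 0.26).

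In LRRC7/LRRC40, LRRC7 was lower in T4A and its partner was near level. The genes share 7141 bases (chr1:70144805-70151945, GRCh38). LRRC7, a large scaffold protein of synapses, had 98.7 and 119 CPM in WT and 61.7 and 56.0 CPM in T4A (log2 fold change −0.89, SE 0.11), the lowest unadjusted p of any gene of the pairs. LRRC40, another leucine-rich repeat gene, had 120 and 137 CPM in WT and 137 and 125 CPM in T4A (0.03, SE 0.10), with overlapping groups. The ratio fell by 0.91 on the log2 scale (SE 0.07, limma adjusted p = 0.0483).

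In ATP1B1/NME7 the + gene had its higher values in T4A. The genes share 192 bases (chr1:169132531-169132722), and canonical exons overlap there. ATP1B1, the beta subunit of the sodium pump, had 72.2 and 81.5 CPM in WT and 116 and 102 CPM in T4A (log2 fold change 0.51, SE 0.10). NME7, a member of the nucleoside diphosphate kinase family, had 149 and 169 CPM against 150 and 129 CPM (−0.19, SE 0.11), again with overlapping groups. The ratio rose by 0.70 (SE 0.06, limma adjusted p = 0.0483).

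In the other 2 pairs the genes had opposite directions. NCAPG, a subunit of condensin I, had 139 and 148 CPM in WT and 189 and 179 CPM in T4A (log2 fold change 0.36, SE 0.09), while LCORL, a transcription factor gene, had 200 and 228 CPM against 182 and 176 CPM (−0.26, SE 0.10). These genes share 3667 bases (chr4:17841199-17844865), and their ratio rose by 0.61 (SE 0.06, limma adjusted p = 0.0483). SEC61A1, the channel of the endoplasmic reticulum through which new proteins pass, had 193 and 196 CPM in WT and 232 and 233 CPM in T4A (0.26, SE 0.09). RUVBL1, an ATPase of chromatin remodelling complexes, had 127 and 115 CPM against 79.5 and 85.9 CPM (−0.55, SE 0.09). They share 6906 bases (chr3:128064778-128071683), and their ratio rose by 0.80 (SE 0.08, limma adjusted p = 0.0483). For all 4 genes the groups did not overlap. The plot of levels by library shows the 8 genes.

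**Figure D4:**
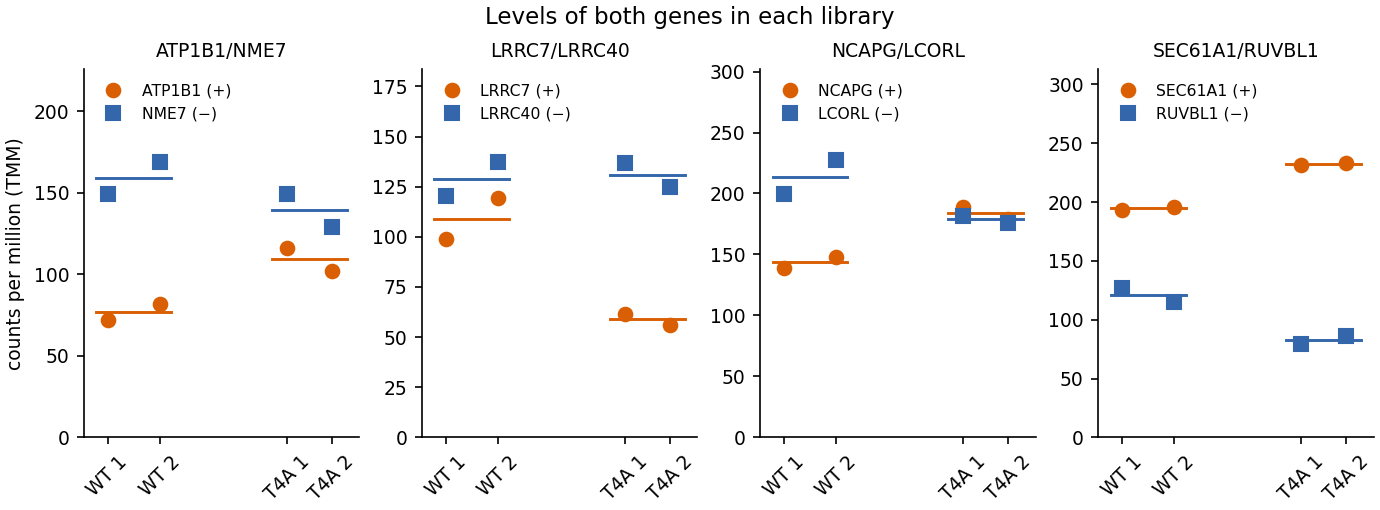
CPM after TMM normalization (vertical axes, each from 0) of the + gene (orange circles) and the − gene (blue squares) in each of the 4 libraries (horizontal axes), for the 4 pairs whose ratio passed the threshold; short lines are group means (n = 2). LRRC7 lies at 98.7 and 119 in WT and at 61.7 and 56.0 in T4A, and LRRC40 between 120 and 137 in all 4 libraries.

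These 4 calls sat just under the threshold. Without either WT library 0 pairs were called, without T4A replicate 1 there were 33 and without T4A replicate 2 there were 146. Over 10 alternatives each of the 4 kept its direction, but several of these could not change it. Library sizes or DESeq2 size factors cancel in a ratio within a library. The block on the replicate number and the fit without a variance trend return the same ratio change by design. In limma the adjusted p of all 4 was 0.0437 with at least 10 counts in every library and 0.131 with no filter. It was 0.172 with the block and 0.384 without a variance trend.

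The within-pair difference recurred between library pairs, while the mean of the pair did not. The difference between the 2 genes in T4A replicate 1 over WT replicate 1 and in T4A replicate 2 over WT replicate 2, which share no library, had r = 0.34 across the 912 pairs, and 64.1% had the same sign. The mean of the 2 genes in the same library ratios had r = −0.056, with 50.3% of the same sign. Neither value was computed for other kinds of pair, so they do not show a trait particular to overlapping pairs.

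The shorter gene of a pair gained relative to the longer one in most pairs with a low p for the ratio. Gene length was looked at after the ratios were seen, and the counts are given without a test. Among the 199 pairs with an unadjusted p below 0.05, the longer gene gained in 60 (30.2%). It gained in 38.7% of such convergent pairs without overlap, 47.7% of divergent pairs and 47.3% of tandem pairs. Over all 912 pairs the longer gene had the higher log2 fold change in 424. Of the 20 pairs with the smallest p, the longer gene gained in 2, and of the 15 pairs with both genes at an unadjusted p below 0.05 in opposite directions, the shorter gene was the higher one in 12. In the other kinds of pair it was so in 6 of 15 (convergent without overlap), 4 of 8 (divergent) and 4 of 10 (tandem).

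The 4 called pairs follow this order, since LRRC7 (584024 bases) lost against LRRC40 (60775 bases), and ATP1B1 (27026 bases), NCAPG (33887 bases) and SEC61A1 (20043 bases) gained against partners of 235418, 180678 and 89137 bases. The denser gene, with more CPM per kb, gained in 125 of the 199 pairs (62.8%), and the more counted gene in 94 (47.2%). Leaving out T4A replicate 1, WT replicate 1 or WT replicate 2 put the share in which the longer gene gained at 26.5%, 28.4% and 16.7%, while leaving out T4A replicate 2 put it at 48.5%. Over the genes of the pairs taken singly, log2 fold change and length had r = 0.12 and a rank correlation of 0.018.

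**Figure D5:**
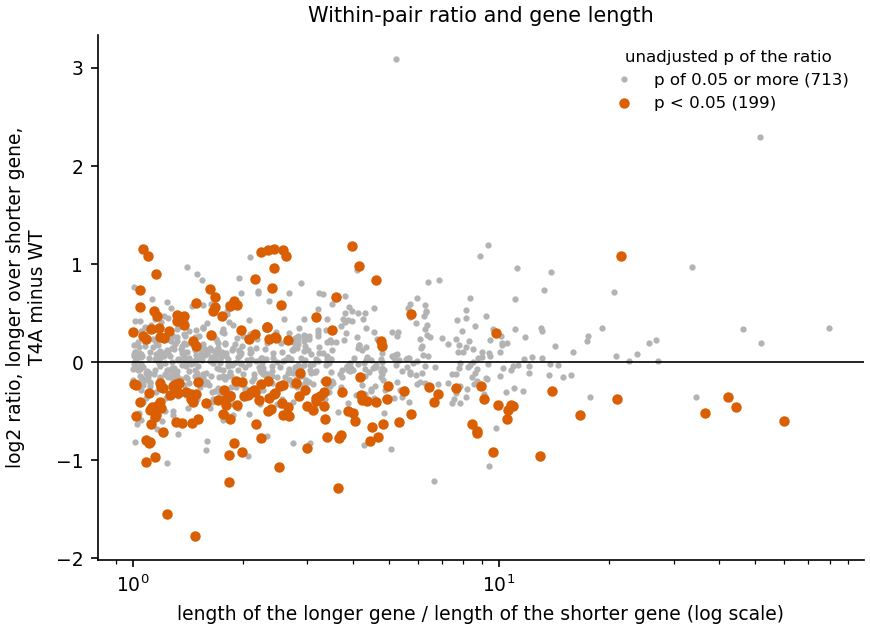
Change of the log2 ratio of the longer over the shorter gene from WT to T4A (vertical axis) against the ratio of their lengths (horizontal axis, log scale) in 912 pairs, 1 point per pair. Of the 199 pairs with an unadjusted p below 0.05 (orange), 60 lie above 0, where the longer gene gained.

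Pairs with the most counts for their less counted gene give the best measured examples. KMT2E, a chromatin reader, and SRPK2, a kinase of splicing factors, had 352 and 366 against 379 and 347 CPM and 601 and 604 against 598 and 534 CPM, with overlapping groups for KMT2E.

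In 3 further pairs the genes differed in the size or direction of their values. FARP1, a guanine nucleotide exchange factor, had 215 and 214 CPM in WT and 179 and 158 CPM in T4A (log2 fold change −0.34, SE 0.10), while STK24, a kinase, had 549 and 534 against 572 and 528 CPM (0.02). NOCT, a phosphatase under clock control, had 214 and 243 CPM against 313 and 265 CPM (0.34, SE 0.12), while ELF2, an ETS transcription factor, had 186 and 199 against 189 and 185 CPM. CEP295, of the centriole, had 238 and 259 against 225 and 210 CPM, and TAF1D, a subunit of the RNA polymerase I initiation factor, 266 and 290 against 305 and 311 CPM. In FARP1/STK24 and CEP295/TAF1D the longer gene was again the one that lost, with ratio changes of −0.37 (SE 0.05) and −0.34 (SE 0.06), and the limma adjusted p were 0.0689 and 0.0846.

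In the longest overlaps the genes did not share a direction beyond their spread. Apart from C12orf40/SLC2A13 they were MFSD4B/REV3L (146327 bases), SYNE2/ESR2 (142202 bases) and BCL2L14/LRP6 (95060 bases). REV3L, the catalytic subunit of DNA polymerase zeta, had 426 and 492 CPM in WT and 457 and 413 CPM in T4A, and MFSD4B, a sugar transporter, 46.7 and 52.2 against 50.3 and 42.4 CPM, so neither gene was clear of the spread. ESR2, the estrogen receptor beta, had 10.6 and 9.60 against 12.7 and 12.1 CPM (log2 fold change 0.30, SE 0.15), and SYNE2, of the nuclear envelope, 229 and 235 against 237 and 221 CPM. BCL2L14, of the BCL2 family, had 1.38 and 1.13 against 3.46 and 1.82 CPM (1.07, SE 0.36), and LRP6, a Wnt co-receptor, 248 and 270 against 244 and 220 CPM (−0.16, SE 0.10). The density of BCL2L14 was 0.743% of that of LRP6.

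At the other end, SYDE1/ILVBL (2 bases) and ZBTB7B/DCST2 (3 bases) had no gene at an unadjusted p below 0.05. SYDE1 had 5.31 and 4.33 CPM in WT and 2.80 and 5.38 CPM in T4A, and ILVBL 9.40 and 6.99 against 4.23 and 7.55 CPM. ZBTB7B, a zinc finger repressor, had 34.1 and 29.3 against 14.7 and 31.6 CPM. T4A replicate 1 was the lowest library for all 3, and T4A replicate 2 lay within or above their WT values.

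Among the factors that cut the RNA or end transcription, none passed the test. Of 44 listed factors 41 were tested, with 0 past the threshold, 2 higher and 3 lower at an unadjusted p below 0.05 and a median log2 fold change of −0.029. These counts are not above the background of 15.5% of all tested genes in either direction. PCF11, which releases the polymerase, had 212 and 220 CPM in WT and 278 and 274 CPM in T4A (0.35, SE 0.09, adjusted p = 0.209 in edgeR's test). It belonged to no pair. The 6 listed factors within pairs were CPSF1 and CSTF3, subunits of the cleavage complexes, PPP1CA and TOX4, of a phosphatase complex, and RECQL5 and RPRD1B, which bind RNA polymerase II.

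None of these 6 had an unadjusted p below 0.05. CSTF3 had 394 and 426 CPM in WT and 429 and 410 CPM in T4A, with its partner TCP11L1 at 65.2 and 68.3 against 68.1 and 68.4 CPM. RPRD1B had 354 and 349 against 423 and 371 CPM, with TGM2, a transglutaminase, at 2.81 and 2.50 against 2.98 and 3.15 CPM. TOX4 had 48.5 and 49.0 against 50.2 and 50.7 CPM, next to METTL3, the RNA methyltransferase, at 37.6 and 38 against 36.7 and 34.2 CPM. CPSF1 (16.5 and 14.7 against 8.01 and 16.8 CPM) and PPP1CA (24.2 and 19.5 against 12 and 21.9 CPM) were low in T4A replicate 1 alone.

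By family the counts of genes of the pairs were small and are given as descriptions, beside a background in tested protein-coding genes of 6.58% higher and 10.5% lower. At an unadjusted p below 0.05, 3 of 48 zinc finger genes were higher and 6 lower, with a median log2 fold change of −0.11, from −0.61 (ZNF839) to 0.40 (ZNF300). Of 13 genes of cytosolic ribosomal proteins or their paralogs, 2 were higher and 0 lower, with a median of 0.12. The 11 genes of the respiratory chain, ATP synthase or their assembly and 9 genes of mitochondrial ribosomal proteins had medians of 0.031 and 0.039. Of 5 genes whose symbols start with PSM, which are proteasome genes apart from the recombination gene PSMC3IP, 2 were lower and 0 higher (median −0.26), and of 3 genes of Integrator, a complex that cuts RNA at the polymerase, 1 was lower, INTS8 (−0.24, paired with the cyclin gene CCNE2), while INTS11 had −0.50 with a wider error. The 8 genes named POLR had 2 higher and 0 lower but a median below 0 (−0.14), from −0.41 (POLR2E) to 0.30 (POLR1C, shared by RNA polymerases I and III). Of 32 solute carriers 1 was higher and 5 were lower, and of 27 TMEM genes 2 were higher and 4 lower.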

How the data were processed

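TT-seq libraries of RPB1-degron HEK293 cells with 52X WT or 52X T4A RPB1 (n = 2 each) were analysed. The authors deposited raw counts of uniquely aligned reads per Ensembl gene, made with featureCounts over whole gene spans, so introns are included. The submitters' processing notes name GRCh38, FastQC, cutadapt 4.6, STAR 2.7.11b, Picard and deepTools 3.5.6. Gene names, types, GC content and transcript ends came by stable identifier from GENCODE 44 on GRCh37 (58702 genes matched); coordinates are those of the deposited table.

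Genes were tested with edgeR 4.0.16 (R 4.3.3; TMM, default filter on low counts, quasi-likelihood test, Benjamini-Hochberg adjustment over all tested genes), and within-pair ratios (log2 CPM with a prior count of 0.5) with limma 3.58.1 (eBayes with trend). Trends on GC content were lowess fits (span 0.3, statsmodels 0.14.6). DESeq2 1.42.0 was an alternative. Scripts were tested on simulated data. Intervals and p-values do not cover variation between cultures if the libraries share one.

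Pairs were named by rule: the most counted, the longest and shortest overlaps, the highest and lowest mean change and the widest opposite change (each only among pairs with both genes at an unadjusted p below 0.05 and groups that did not overlap), the smallest ratio p, those past a threshold, those at the count minimum, and those holding a listed 3′-end factor. The members and lists were chosen with earlier results of these data known. The paper given does not describe this experiment. 1 pair that the rule names, and 1 marker gene, are not reported here.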

Additional observations from a re-analysis of the deposited data

How the results depend on the processing

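Against 0 genes of the pairs past the threshold, no filter on low counts gave 5, DESeq2's Wald test 7, and an unadjusted p without a fold limit 312. Counts and medians under other settings of the fit, here and above, are given without those of all tested genes or neighbouring pairs. They therefore do not compare these pairs with other genes. Leaving out 1 library gave 0 to 198 (1 without WT replicate 1, 14 without T4A replicate 1, 198 without T4A replicate 2), where the lone library is assumed to vary like the other group. The median log2 fold change of the genes, −0.0765, was −0.0253 with library sizes, −0.0730 with DESeq2 size factors, −0.101 with no filter, −0.0666 with at least 10 counts in every library, −0.0892 with DESeq2, −0.0847 and −0.0456 for pairs with at least 1000 and 10000 counts, −0.0657 for pairs with any count, −0.0631 for overlaps of at least 1000 bases, −0.0794 for pairs clear of other genes, −0.0926 for overlapping canonical exons, and −0.0975 to −0.0570 with 1 library left out.

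The r between the genes of a pair, 0.0950, was −0.105 with at least 10000 counts and 0.0025 to 0.328 with 1 library left out. The share on the same side, 51.3%, was 60.9% with no filter and 60.7% with DESeq2. In these fits r was 0.0941 and 0.0920, so the higher share came without a higher r. The share was 45.8% with at least 10000 counts and 51.0% to 55.6% with 1 library left out. Against 4 pairs called by their ratio there were 0 with no filter, 0 without a variance trend, 8 with at least 10 counts in every library, 2 among overlapping canonical exons, 199 at an unadjusted p, and 0 to 146 with 1 library left out. DESeq2 gave no ratio. Pairs with both genes at an unadjusted p below 0.05 in the same direction, 20, were 35 with no filter and 4 to 91 with 1 library left out, and those in opposite directions, 15, were 22 with library sizes (21 in the same direction), 20 with no filter and 6 to 16 with 1 library left out. The share of ratios in which the longer gene gained, 30.2%, was 16.7% to 48.5%. The log2 fold change of LRRC40 ran from −0.0784 to 0.104 with 1 library left out, and was below 0 without WT replicate 1 (−0.0784) and without T4A replicate 1 (−0.0347). Of 28 genes with an unadjusted p below 0.05 in the pairs named for their mean change, opposite change or ratio, 6 stayed below 0.05 whichever library was left out, and 13 did not without WT replicate 1, 13 without WT replicate 2, 8 without T4A replicate 1 and 4 without T4A replicate 2. The causes were not tested.

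A block on the replicate number gave 34 genes and 0 ratios past the threshold. These counts too are given without the shares over all tested genes or neighbouring pairs, so they do not compare these pairs with others. Under the block r was 0.141, and 33 pairs went the same way and 6 opposite ways. The labels do not say whether samples with the same number were paired. Deviations of same-numbered libraries correlated at 0.00498, a single value over genes that cannot decide this. The count minimum of 10000, the canonical exon class and all alternatives for the directions of both genes and for gene length were chosen after seeing the data. With 2 libraries per group, depth limits mostly the sparse genes, where a gene of a pair had as few as 104 counts.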
